A study of Drosophila melanogaster with 2 samples.

Results

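The MADF-BESS genes of Drosophila melanogaster are described here from chromatin immunoprecipitation and sequencing (ChIP-seq) of a tagged member of the same family, hng1. The 8 genes (hng1, hng2, hng3, Adf1, Coop, Dlip3, Mes2 and stwl) were taken by name from the 13945 protein-coding genes that the Ensembl annotation places on the main chromosome arms. Embryos were whole, of mixed sex and 0 to 16 hours old, and came from a stable transgenic line in which GFP is joined to the C terminus of CG9437, the systematic name of hng1. The 2 biological replicates carry the same insertion and form the only group, so no contrast of conditions exists. The label for the antibody names CG9437, while a free-text note attached to each sample mentions an input control. The assay and output labels describe a transcription factor ChIP, and the regions are treated as such. Not given in the sources used here: what drives the transgene, how many embryos were pooled, read numbers, and whether the transgene adds a copy of hng1.

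In dm6 coordinates, hng1 lies on chr2R:21168930-21170010 (plus strand), Adf1 on chr2R:6662265-6668085 (plus), Coop on chr2R:7490836-7492589 (minus) and Dlip3 on chr2R:18128494-18130246 (plus). hng2 lies on chr3R:8806322-8807581 (plus), and hng3 (chr3L:737680-755489, minus), stwl (chr3L:14402930-14409939, minus) and Mes2 (chr3L:22945657-22952248, plus) lie on the left arm of the same chromosome.

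MADF stands for Myb/SANT-like domain in Adf-1, a helical fold that binds DNA. The BESS motif, usually near the other end of the protein, joins such proteins to each other and to partners and takes its name from BEAF, Su(var)3-7 and Stonewall. Members act as activators or repressors of transcription: Adf1 was found as a factor at the distal promoter of the alcohol dehydrogenase gene, and stwl keeps the germline stem cells of the ovary. The hinge genes hng1, hng2 and hng3 are named for the wing hinge. Coop works with the Wnt pathway factor Pangolin as a corepressor, Dlip3 with the Rel factor Dorsal, and Mes2 is named for its expression in mesoderm.

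The 8 proteins were compared over the MADF region. Translated from the reference genome, they had 254 residues in hng2, 262 in Adf1, 315 in hng1, 333 in hng3, 348 in Dlip3, 358 in Coop, 437 in Mes2 and 1037 in stwl. The shared region began 5 (hng3) to 62 (Mes2) residues from the amino end, at residue 14 in hng1 and 24 in Adf1. Between pairs of members, 16.3% to 31.8% of its aligned residues were identical, with a median of 24.4% over 28 pairs. The closest pair was hng1 and Mes2 (31.8%), followed by Adf1 and Mes2 (31.6%), and the farthest was Coop and Dlip3 (16.3%). Among the 3 hinge proteins, hng1 shared 17.2% with hng2 and 21.6% with hng3, both below that median, while hng2 and hng3 shared 28.4%.

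**Figure D1:**
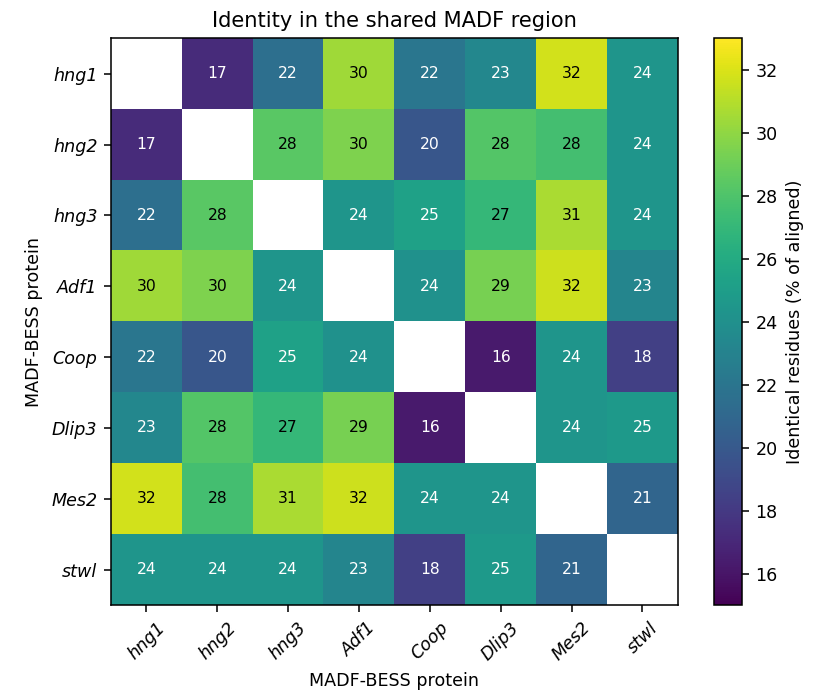
Percentage of identical residues in the aligned MADF region for every pair of the 8 proteins (rows and columns are proteins, colour is the percentage). The brightest cells join Mes2 with hng1, Adf1 and hng3, and the darkest join Coop with Dlip3 and hng1 with hng2.

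Sequences that reach 50 bp to each side of a summit are shown in the sense of the gene, from the RefSeq copy of the dm6 genome, so that strong and weak regions of the family can be compared. Those shown overlap no untranslated region. Capitals mark matches, on either strand, of 6 words. GATAA is a core read by GATA factors, and GAGAG is one read by the GAGA factor. TATCGATA is the element bound by Dref, and CGATA is a part of it. GCNGCNGC stands for the triplets known from Adf1 sites. ACGTAA was taken up from earlier work on these lists.
hng3, 415 bp downstream of its inner start (chr3L:738884-738984, minus strand, final list, signal 515): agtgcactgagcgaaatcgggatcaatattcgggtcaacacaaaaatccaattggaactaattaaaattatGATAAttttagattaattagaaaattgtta
stwl, at -303 bp from its start (chr3L:14410192-14410292, minus strand, final list, signal 270.0): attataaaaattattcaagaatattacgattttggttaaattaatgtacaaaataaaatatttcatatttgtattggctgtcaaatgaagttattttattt
stwl, at 360 bp from its start (chr3L:14409529-14409629, minus strand, final list, signal 191): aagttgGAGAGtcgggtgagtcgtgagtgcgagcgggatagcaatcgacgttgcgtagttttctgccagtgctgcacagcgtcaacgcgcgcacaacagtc
hng3, at -433 bp from its distal start (chr3L:755872-755972, minus strand, not final, signal 61.0): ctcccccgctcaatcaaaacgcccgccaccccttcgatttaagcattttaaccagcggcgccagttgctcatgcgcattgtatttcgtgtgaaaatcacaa
Mes2, at -210 bp from its start (chr3L:22945397-22945497, plus strand, not final, signal 62.6): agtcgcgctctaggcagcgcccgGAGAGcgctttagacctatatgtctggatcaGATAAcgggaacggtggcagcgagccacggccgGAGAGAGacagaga

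The hng3 intron window and the upstream stwl window are rich in A and T, with 28.7% and 16.8% G+C. The stwl window inside the gene is not, with 57.4%, and it carries a GAGAG match and part of the coding sequence. The weak Mes2 window (60.4%) held GATAA and GAGAG matches, and the weak hng3 window had 50.5%. Over all members, windows at summits of the final list had a median of 28.7% G+C (n = 13) and those of other candidates 44.6% (n = 32). Over the whole data set the medians were 32.7% (n = 6091) and 39.6% (n = 23909). Several windows belong to the same gene, so these numbers are a description and no test was made.

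Signal, the authors' value for each region, was read at the strongest candidate summit within 500 bp of a transcription start site (TSS) of each member. It is given in the order pooled list, replicate 1, replicate 2, and each list has its own scale, so values compare within a list. A candidate is any of the 30000 regions in the pooled list or in a replicate list, and a final peak is one of the 6091 in the authors' final list. The final list holds the pooled candidates of highest signal, down to 148, so a final peak is a strong candidate of the pooled list. Signals of final peaks have a median of 258 and reach 19974.

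All 8 genes had a pooled candidate at a TSS, and 3 of them (hng1, hng3 and stwl) had a final peak there. Over all protein-coding genes 7055 (50.6%) had such a candidate, and 3511 of these, 49.8%, had a final peak. The members' share (37.5%, 3 of 8) is near that background and is read as no result about the family. The middle values of the members' strongest promoter signal were 78.6 and 123, and the median over the 7055 genes was 147, whose quartiles were 74.4 and 309.

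hng3 had the highest promoter signal, with 515 in the pooled list (rank 1150), 294 in replicate 1 (rank 1089) and 232 in replicate 2 (rank 1288). It was above 86.3% of the 7055 genes. The summit lay in an intron, 415 bp downstream of the inner of 2 start sites, and no other gene had a TSS within 500 bp. The first place depends on the window: within 250 bp hng3 had 92.1, below hng1 (277) and Coop (123), and within 1000 bp Adf1 (770.4) was above it. The distal start of hng3 had a weak candidate only, with a signal of 61.0 at -433 bp (negative values are upstream).

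hng1, the tagged gene, had 277 in the pooled list (rank 2739), 173 in replicate 1 (rank 2330) and 84.7 in replicate 2 (rank 5217). This was above 71.9% of the 7055 genes in the pooled list, above 74.1% of genes with a candidate in replicate 1 and above 56.4% in replicate 2. The replicates therefore differ more here than at hng3. The summit lay at -200 bp from hng1 and at -71 bp from the TSS of Isha, so it can be counted for either gene. A weaker final summit (201, rank 4252) lay at 17 bp, in the 5′ untranslated region, and also within 500 bp of Isha, at -288 bp. It matched a summit in replicate 1 (130.0) but none within 100 bp in replicate 2. The single hng1 promoter summit of replicate 2 lay at -124 bp, between these pooled summits. Whether a transgenic copy adds to the signal at hng1 was not tested.

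stwl had 270.0 in the pooled list (rank 2844), 170.0 in replicate 1 (rank 2396) and 96.6 in replicate 2 (rank 4349). That summit lay at -303 bp, between stwl and CG3919, whose TSS is 384 bp away on the other side. It also lay 456 bp downstream of the TSS of the noncoding lncRNA:CR45233. A separate final summit (191, rank 4508) lay at 360 bp inside stwl, with 119.5 in replicate 1 and 75.3 in replicate 2, and no other gene had a TSS within 500 bp of it.

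The other 5 genes stayed below the limit of the final list. Coop had 123 in the pooled list (rank 7498) at -161 bp, where the partner was 51.2 in replicate 1 and 76.9 in replicate 2. The highest value in replicate 1, 54.7, belonged to a second candidate at -364 bp (102 in the pooled list). hng2 had 78.6 (rank 12362) at exactly -500 bp, the edge of the window, which is 20 bp upstream of a TSS of CG9839. Its partner was 41.7 in replicate 2 and 29.7 in replicate 1, where it fell outside the window and another candidate, of 30.8, was the highest inside it. Both genes thus had more than 1 weak candidate at the promoter. Adf1 had 77.1 (rank 12627) at -193 bp, with 58.5 in replicate 1 and 23.5 in replicate 2. The summit was also within 500 bp of Dpit47, an Hsp90 co-chaperone gene, at 46 bp from its TSS. Mes2 had 62.6 (rank 16074), with 32.6 and 31.8 in the replicates, and Dlip3 had 48.7 (rank 21966), with 47.9 in replicate 2 and no candidate in replicate 1.

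Part of the order of the genes held in both replicates. hng3 came first in each, followed by hng1 and stwl, which changed places between the replicates. Coop was above hng2 and Mes2 in each. Adf1 was the highest of the lower 5 genes in replicate 1 and the lowest in replicate 2, and hng2 and Mes2 changed places as well. The order of hng1 and stwl, that of hng2 and Mes2, and the place of Adf1 are thus not larger than the spread between the replicates, and Dlip3 has a value in replicate 2 only.

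**Figure D2:**
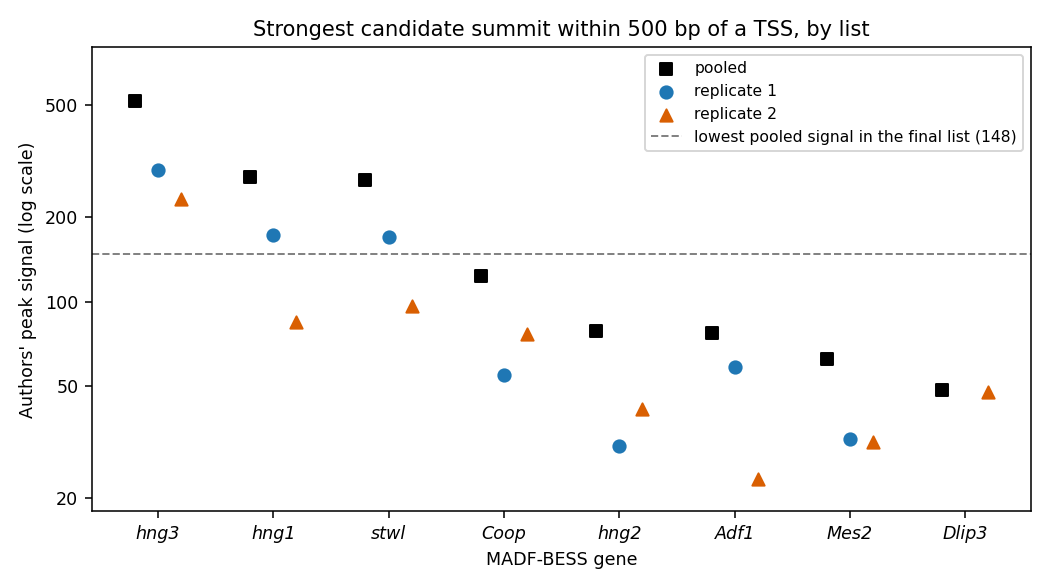
Strongest candidate signal within 500 bp of a TSS (log axis) for the 8 genes, with a square for the pooled list, a circle for replicate 1 and a triangle for replicate 2. Each list has its own scale, and the dashed line is the lowest pooled signal in the final list (148), which hng3, hng1 and stwl exceed.

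Read over the whole gene and 2 kb on each side, 6 of 8 members held a final summit, which adds hng2, Adf1 and Coop. Of all protein-coding genes 41.4% (5767 of 13945) did so. Gene length ran from 1081 bp for hng1 to 17810 bp for hng3, against a median of 2166 bp over protein-coding genes, and a longer gene has more room for a summit. The 8 genes held 45 pooled candidates, of which 13 were final. Of the 13, 2 lay within 500 bp of the member's own TSS alone and 3 within 500 bp of the member and of another gene. A further 3 lay at another gene alone and 5 at neither. These 5 include Coop summits that missed the limit narrowly, at -547 bp and 520 bp from wech.

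The strongest regions of the 8 genes were inside Adf1. Its introns held final summits of 770.4 (rank 606) at 826 bp and 602 (rank 892) at 1139 bp from the TSS, against 77.1 at its promoter. No other gene had a TSS within 500 bp of either, and the nearest to the inner summit was the noncoding lncRNA:CR45128, at 786 bp. The summit at 1139 bp was found in both replicates, with 329 (rank 904) and 279 (rank 978). The summit at 826 bp had 517 (rank 440) in replicate 1 and no partner within 100 bp in replicate 2. A further final summit (186) past the end of Adf1 lay at -157 bp from CG9410 and was matched in replicate 1 only.

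hng1 had its highest signal outside the promoter as well. A final summit of 369 (rank 1879) lay 851 bp past the end of the gene, with 208 in replicate 1 (rank 1814) and 157 in replicate 2 (rank 2206). It lay at -140 bp from Xpd, a helicase subunit of the general factor TFIIH, and at -189 bp from LSm1, a gene of messenger RNA decay. Coop likewise had its final summits past the gene, with signals of 369, 305 and 295 that lay 466, 769 and 1533 bp past its end. The summit of 305 was at -244 bp from wech and had no partner within 100 bp in either replicate. Those of 369 and 295 had partners in both. The nearest TSS to these was also that of wech, at -547 bp and 520 bp, just outside the 500 bp window. The window of the summit of 295 overlaps the 5′ untranslated region of wech. hng2 had a final summit of 239 (rank 3384) 1039 bp past its end, with no TSS within 500 bp. Its partner in replicate 2 (98.9, rank 4214) lay 1 bp away, and the nearest summit in replicate 1 (131, rank 3374) lay at 2405 bp from the TSS against 2298 bp in the pooled list, just beyond the matching distance of 100 bp.

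hng3 held 16 pooled candidates in the gene and 2 kb around it, more than any other member, and 1 of them was final. The strongest of the rest (148, rank 6108) lay at -6416 bp from the inner start, in the long intron, and had signals of 76.0 and 71.7 in the replicates. At rank 6108 it fell just short of the 6091 final peaks. The gene emc, an inhibitor of helix-loop-helix factors, lies in the same intron, and its TSS had candidates of 85.5 and 82.3, neither final. Dlip3 and Mes2 had no final summit in reach: Dlip3 held a single candidate and its nearest final summit was 10507 bp away, while Mes2 held 3 candidates of up to 80.8 and its nearest final summit was 35507 bp away. The 500 bp limit left out a stwl candidate at -502 bp (68.5) and kept that of hng2 at -500 bp.

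**Figure D3:**
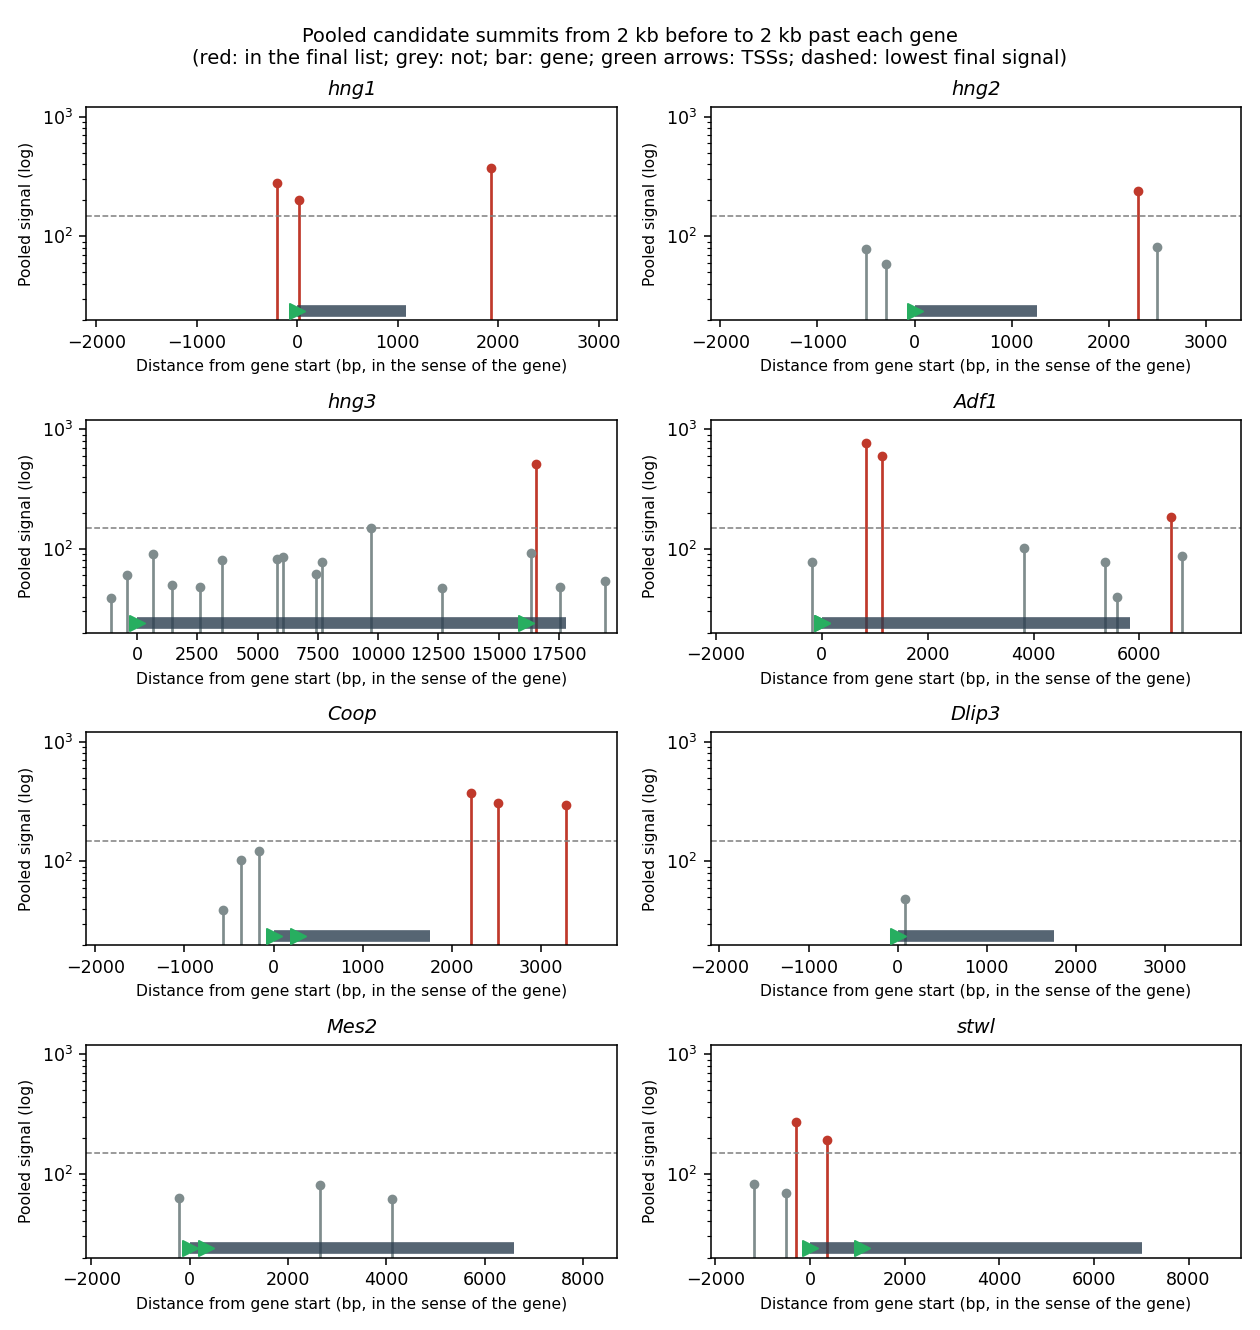
Pooled candidate summits in each gene and 2 kb to each side, by distance from the gene's start (bp, in the sense of the gene) and signal (log axis). Red stems are in the final list and grey ones are not, dark bars are genes and green arrows TSSs. Adf1 has its tallest stems inside the gene, hng1, hng2 and Coop past the end, and Dlip3 and Mes2 have no red stem.

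The replicates were compared at the members' own summits. Over 5603 final peaks with a summit in both replicates, the ratio of the signal in replicate 1 to that in replicate 2, lists that are not scaled to each other, had a median of 1.17, and 5% of peaks lay below 0.597 and 5% above 2.18. The ratio was 1.27 for hng3, 1.76 for the upstream summit of stwl and 2.04 for the promoter summit of hng1. That of hng1 was higher than at 93.6% of the peaks, and that of the downstream summit of hng1 (1.32) was higher than at 65.4%. The Adf1 promoter, which is not final, had a ratio of 2.49. Of the members' 13 final summits 8 had a partner within 100 bp in both replicates, and so did 17 of their 32 other candidates. Over the whole data set the shares were 92.0% of final peaks and 33.7% of other candidates. The members' counts are few and were not tested against these shares, and they depend on the distance: of all 45 summits 25 were matched within 100 bp and 32 within 200 bp. The 5 final summits without a partner in both were at hng1, hng2, Adf1 (2 summits) and Coop. A replicate summit just beyond 100 bp of a final summit could be counted for a weaker candidate that is not final. This happened at hng2 in replicate 1 (131) and past the end of Adf1 in replicate 2 (62.4).

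**Figure D4:**
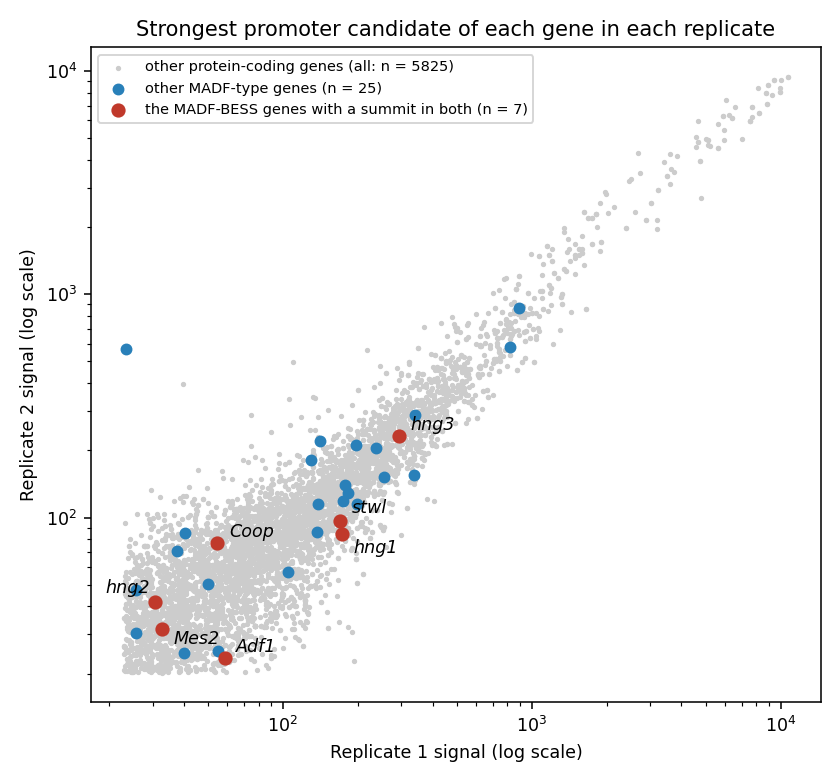
Signal of the strongest promoter candidate of each protein-coding gene in replicate 1 and replicate 2 (log axes, grey, 5825 genes in all), with other MADF-type genes in blue and 7 of the 8 MADF-BESS genes in red. hng3 lies highest of the red points, and hng1 and stwl lie close together towards replicate 1. The blue point at the far left is Dyro.

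Each of the 6 words was in at most 1 of the members' 13 final windows. ACGTAA, found in 10.2% of all final windows and in 4.01% of other candidate windows, was in 1 of the members' 13 final windows, at the Adf1 summit that lies beside CG9410, and in none of the 5 at their promoters. It was in 3 of the members' 32 other windows, a pair of them in hng3 and the last in Adf1. TATCGATA is in 2.04% of all final windows and was in none of the 13. CGATA (15.9% of final windows) was at the hng1 summit of 17 bp and GATAA (24.3%) at the hng3 intron summit. GAGAG (9.16%) was at the inner stwl summit, and GCNGCNGC (1.72%) at none. Among the members' 32 other windows, that of the Adf1 promoter held a TATCGATA, which contains CGATA. GCNGCNGC was in 3 of the 32, in hng3, Dlip3 and Mes2. Over all other candidates TATCGATA was in 0.736% of windows and GCNGCNGC in 3.59%. The commoner words in the 32 were GAGAG, in 7 windows, and GATAA and CGATA, in 5 each. Of all 23909 other candidate windows, 2878 held GAGAG, 4939 GATAA and 3072 CGATA. These counts were not tested. A missing word says only that these letters are not in the window.

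The MADF region was then used to find relatives by sequence alone. A profile of the 8 regions matched 43 proteins at an E-value under 1e-05, all 8 members and 35 others, among them jigr1, brwl (brickwall) and Hmr, the hybrid male rescue gene. Of the 35, 29 had a pooled candidate at a TSS and 18 of these (62.1%) a final peak, beside the background of 49.8%. The median of their strongest promoter signal was 270.0, against 147 for all 7055 genes. In 13 of the 18 the summit lay within 500 bp of the TSS of another protein-coding gene too. Of all final summits at a protein-coding TSS, 39.2% (1246 of 3180) lay at more than 1 such gene, a share over summits and not over genes. No test of the lists was made. With 2 kb on each side, 25 of the 35 genes (71.4%) held a final summit, beside 41.4% of all protein-coding genes.

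The strongest of these relatives was CG1602, with 1749 in the pooled list (rank 174), 893 in replicate 1 and 866 in replicate 2, at -181 bp and shared with PIG-G. Its window held a GAGAG, and those of the next 4 genes held none of the 6 words. brwl followed with 1394 (rank 248), 816 and 582, at -193 bp. Dyro had 1179 (rank 334) at -497 bp. Its partners in replicate 1 (604, rank 357) and replicate 2 (569, rank 347) were 11 and 57 bp away, and the first lay outside the 500 bp window, so that its promoter value in replicate 1 alone was 23.5. CG5953 had 609.9 (rank 872), and jigr1, a regulator named for its interaction with jing, had 502 (rank 1194), with 336 in replicate 1 and 154 in replicate 2. hng3 lay between the last 2 of these genes. Hmr had 306 (rank 2402). CG10949 had the lowest value of those with a candidate, 39.4, and 6 relatives, among them CG4404 and CG8765, had no pooled candidate at a TSS.

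The windows at brwl and jigr1 are shown as examples of strong summits of the family outside the 8 genes. They have no capitals because none of the 6 words is in them.
brwl (chr2L:9568647-9568747, plus strand, signal 1394, 26.7% G+C): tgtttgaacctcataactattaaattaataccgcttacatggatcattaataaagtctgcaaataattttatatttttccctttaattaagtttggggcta
jigr1 (chr3R:25646963-25647063, plus strand, signal 502, 31.7% G+C): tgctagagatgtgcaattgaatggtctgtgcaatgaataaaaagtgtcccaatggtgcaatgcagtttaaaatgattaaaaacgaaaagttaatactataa

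**Figure D5:**
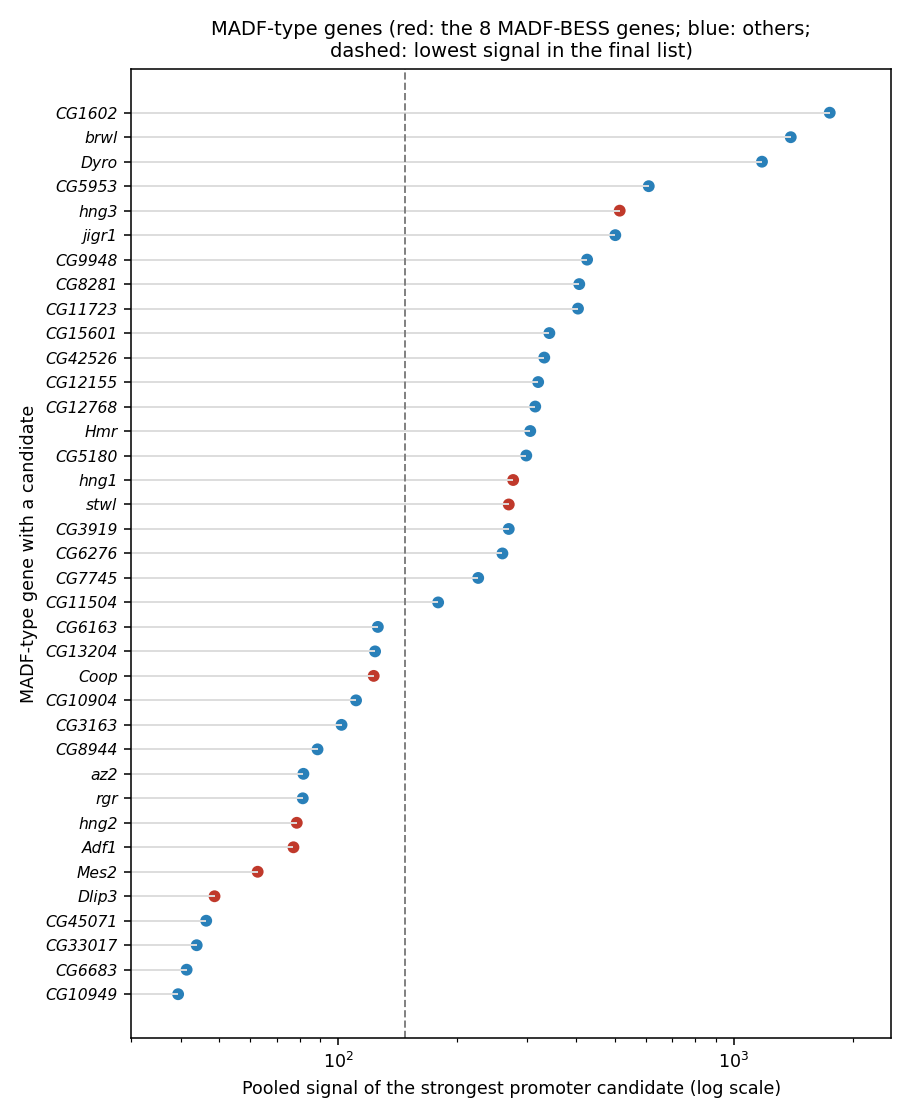
Pooled signal of the strongest promoter candidate (log axis) of the 37 MADF-type genes that have such a candidate, in order. Red points are the 8 MADF-BESS genes and blue points the others, and the dashed line is the lowest signal of the final list. CG1602, brwl and Dyro lie above 1000, and Dlip3 is the lowest red point.

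Some members lie beside a relative. stwl and CG3919 are transcribed away from each other with 686 bp between them and share the final summit of 270.0. Coop lies in a group with az2, CG1603 and CG1602, all within 50 kb, of which az2 is the nearest at 18032 bp. In that group the promoter signal ran from no pooled candidate at CG1603 through 81.7 at az2 and 123 at Coop to 1749 at CG1602. Mes2 lies 22124 bp from CG12768, which had a final promoter peak of 315 (rank 2324). hng1, hng2, hng3, Adf1 and Dlip3 had no relative within 50 kb.

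Genes known to work with members were looked up by name. Adh, the gene after which Adf1 is named, had a final summit of 700.1 (rank 705) at -33 bp, with 259 in replicate 1 (rank 1311) and 444 in replicate 2 (rank 488). This was above the promoter signal of all 8 members in the pooled list and in replicate 2, while hng3 was higher in replicate 1 (294). The Hox gene Antp, also bound by Adf1, had a final promoter summit of 297 (rank 2491), with 185 and 112 in the replicates. Its strongest final summit, 624, lay 20197 bp downstream of its nearest TSS. Ddc, which makes dopamine, had no pooled candidate within 500 bp of its TSS. Of the partners of Dlip3, dl, which encodes Dorsal, had a candidate of 92.6 that was not final, and the mesoderm gene twi had none. A final summit of 195 lay at -515 bp from dl, just outside the window. pan, which encodes Pangolin, had 132 at -265 bp, not final. Its strongest candidate at a TSS in replicate 2 was 111, at 237 bp, and replicate 1 had none there. A final summit of 193 (rank 4489) lay at -1869 bp from the nearest TSS of pan. Of the 4 genes with a candidate, Adh and Antp had a final promoter peak, beside the background of 49.8%.

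Likeness between promoters was measured as the distance of the log2 signals in the 2 replicates over 5825 genes with a candidate at a TSS in each. The nearest gene to hng1 was Isha and the nearest to stwl was CG3919, each at a distance of 0 because they share the summit. After them came rno and mri for hng1, and eIF3c (171 in replicate 1 and 97.1 in replicate 2) and CG3061 for stwl. chb (298 and 231), CG1407 and CG12129 were nearest to hng3. CG1407 and CG12129 had the same signals (295 and 235), and so had rno and mri (172 and 84.7), so each pair is 1 point. With 2 values per gene, many genes lie equally close.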

How the data were processed

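Region lists from ChIP-seq of 2 biological replicates were used. Manifests deposited by the authors derive each replicate list and the pooled list from alignments to dm6 and a control alignment, and the final list from these 3 lists. Which aligner and peak caller were used, and the limit on the irreproducible discovery rate, is not given in the sources used here. Signal is the authors' deposited value of each region, used to rank regions within its own list. Ratios between the replicate lists, which are not scaled to each other, are set only against the same ratio over all final peaks. Per the labels, chromatin was sheared by sonication into fragments of 200 to 800 bp. Read depth is unknown, so no interval that needs it is given.

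Summits were placed on Ensembl release 115 (dm6 coordinates), within 500 bp of a TSS or in the gene extended by 2000 bp, and matched between lists within 100 bp. The longest RefSeq protein of each of 13852 genes was translated from the genome. The members' shared region was found with jackhmmer from Adf1, aligned with MAFFT 7.526, and searched with HMMER 3.4 at an E-value under 1e-05. Python 3.11.15, numpy 2.4.6, pandas 2.3.3, scipy 1.17.1, Biopython 1.88 and matplotlib 3.10.9 were used. Placement was checked on simulated summits. No statistical test was made, since there is 1 group.

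The members, words and lists were chosen with earlier results of these data known. The text names the members, the 5 relatives with the highest promoter signal, jigr1, brwl and genes known to work with members. It also names genes that share a member's final summit and some that share another candidate. The 3 genes nearest to each member with a final promoter peak are named as well. CG12768, Hmr, CG4404, CG8765, CG10949, az2, CG1603, PIG-G, lncRNA:CR45128 and emc are named for their place or values, after these were seen. Alternatives were other windows, extensions and summit distances, the nearest TSS only, the final peaks of higher signal and each replicate alone. Sequence from arm 2R is not shown.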

Additional observations from a re-analysis of the deposited data

How the results depend on the processing

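No paired analysis was possible because there is 1 group and no contrast. The count of members with a final promoter peak was 3 of 8, beside 25.2% of all protein-coding genes, with or without a candidate. All 8 members had a candidate, and among genes with one the share was 49.8%. For the alternatives only the share over all protein-coding genes is given, so the members cannot be read as raised from it. The count was 1 (hng1) with a window of 250 bp, beside 19.9%, and 4 with 1000 bp, which adds Adf1, beside 28.6%. It was 3 with the nearest TSS only (19.2%) and among final peaks of higher signal (15.5%). The final list was made from both replicates, so leaving 1 out meant counting strong candidates in the other replicate's own list. The count was then 4 without replicate 1 (24.6%), which adds Coop (rank 5918 in replicate 2), and 3 without replicate 2 (25.2%). The count of members with a final summit in the extended gene was 6, beside 41.4%. It was 4 without extension (14.8%), 5 with 1000 bp (35.1%), 6 with 5000 bp (55.5%) and 5 among final peaks of higher signal (26.8%). It stayed at 6 with replicate 1 left out (40.2%) and with replicate 2 left out (41.3%), again in the other replicate's list. Of the members' 45 pooled summits, 25 had partners in each replicate. Matching within 50 bp left 13, matching within 200 bp gave 32, and overlap of the regions gave 37.

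The strongest promoter signal moved in 3 of 20 alternative values: hng1 with the nearest TSS only (201), hng3 with 250 bp (92.1) and Adf1 with 1000 bp (770.4). The last 2 change which gene is highest. With 250 bp hng2 and stwl had no candidate, and with the nearest TSS only hng2 and Adf1 had none, so these gave no value. The percentile among promoters was labelled as moved in 6 of 15 values with a replicate left out. That label does not follow the size of the change. Without replicate 1 the percentile was 56.4 for hng1 (71.9 in the pooled list), 62.1 for stwl (71.1), 32.9 for Dlip3 (9.53) and 16.4 for Mes2 (18.6). Without replicate 2 it was 13.9 for hng2 and 16.3 for Mes2. Adf1 is not among the 6, yet its pooled 26.3 became 5.36 without replicate 1 and 37.9 without replicate 2. Coop, also not among them, had 43.7 in the pooled list, 52.4 without replicate 1 and 35.7 without replicate 2. Depth is unknown, so a weak or missing candidate, as at Dlip3, does not show that binding is absent.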
